A study of Homo sapiens with 9 samples.

Results

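The multidrug resistance efflux pumps examined here are 6 transporters of the ATP-binding cassette (ABC) superfamily, ABCB1, ABCC1, ABCC3, ABCC4, ABCC5 and ABCG2. They were chosen by name, matched to their Ensembl identifiers in the count table, and make up 6 of the 60664 genes listed there. All 6 passed the filter on low counts, as did 17207 genes in all.

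ABC efflux pumps sit in the plasma membrane and spend ATP to move drugs, drug conjugates, bile salts and nucleotides out of the cell. Cancer cells that make more of them can keep the intracellular concentration of chemotherapeutics low, which is why they are known as multidrug resistance genes. Vaults are large ribonucleoprotein particles built from the major vault protein, 2 further proteins and small noncoding vault RNAs (vtRNAs), and a link between vaults and drug resistance has long been discussed.

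RNA was sequenced from Huh-7 cells, an established human hepatocellular carcinoma line, as wild type (WT), with the vtRNA1-1 gene deleted (1-1 KO) or with the vtRNA1-2 gene deleted (1-2 KO), with 3 libraries per line. The 1-2 KO line was grown from a single cell after CRISPR/Cas9 editing of the WT cells with 2 guides, while the WT and 1-1 KO cells had come from another laboratory. All lines were grown without drug in the same serum-containing medium to near confluency, so the values below are basal levels. Each knockout is represented by 1 line, so a difference between lines cannot be told apart from a difference between clones, and p-values measure only the spread between libraries of a line.

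Libraries held between 32384469 and 41782387 counts. The polyadenylated libraries do not check the deleted vtRNAs. The hepatocyte markers, all 8 of which passed the filter on low counts, were expressed, with APOB at 5460 CPM (counts relative to the scaled library total) in WT. Their summed level ran from 12457 to 13234 CPM in WT, 27754 to 28654 in 1-1 KO and 19110 to 20932 in 1-2 KO, and 7 were higher and 0 lower in 1-1 KO (1 lower without 1-2 KO 1), 4 higher and 2 lower in 1-2 KO. ALB (2532 CPM in WT, 9427 in 1-1 KO, 4739 in 1-2 KO) and AFP (1759, 8167 and 7419 CPM) rose in both knockouts. Of 8 leukocyte, endothelial and fibroblast markers, CD3E, CDH5, VWF and DCN were near 0 in every line and were not tested. LUM (157, 206 and 62.1 CPM), PDGFRB (1.77, 5.45 and 6.53 CPM) and PTPRC (0.153, 0.522 and 0.998 CPM) changed in both knockouts, and PECAM1 (7.57, 6.67 and 0.839 CPM) in 1-2 KO. The sum of these 8 markers ran from 159.9 to 171.6 CPM in WT, 215.1 to 225.1 in 1-1 KO and 68.3 to 73.35 in 1-2 KO. The part of either marker list in the pump results was not tested. The library 1-2 KO 1 stood apart from the other 1-2 KO libraries on the third principal component, at -10.6 against 5.47 and 6.08. WT 3, the library with the fewest counts, lay on the same side, at -7.62 against 4.58 and 1.65 for WT 1 and WT 2. Pump calls that change without 1-2 KO 1 are given with both values.

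None of the 6 pump mRNAs moved by as much as 1 on the log2 scale in any comparison. Of all genes tested, 13.4% did so with a call in 1-1 KO vs WT, 11.7% in 1-2 KO vs WT and 14.1% between the knockouts. For only 6 genes, none is near these shares and does not set the pumps apart. In 1-1 KO cells ABCB1, ABCC1, ABCC3, ABCC4 and ABCC5 were downregulated against WT and none was upregulated. In 1-2 KO cells ABCB1, ABCC3 and ABCG2 were downregulated, whereas ABCC4 and ABCC5 were upregulated. The largest pump changes against WT were the 1.49-fold lower ABCC1 in 1-1 KO and the 1.55-fold lower ABCG2 in 1-2 KO. Of all genes tested, 63.4% differed between 1-1 KO and WT (32.5% higher, 30.9% lower) and 54.4% between 1-2 KO and WT (28.2% higher, 26.2% lower). A call by itself therefore sets a pump little apart, and both comparisons rest on the same WT libraries.

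**Figure D1:**
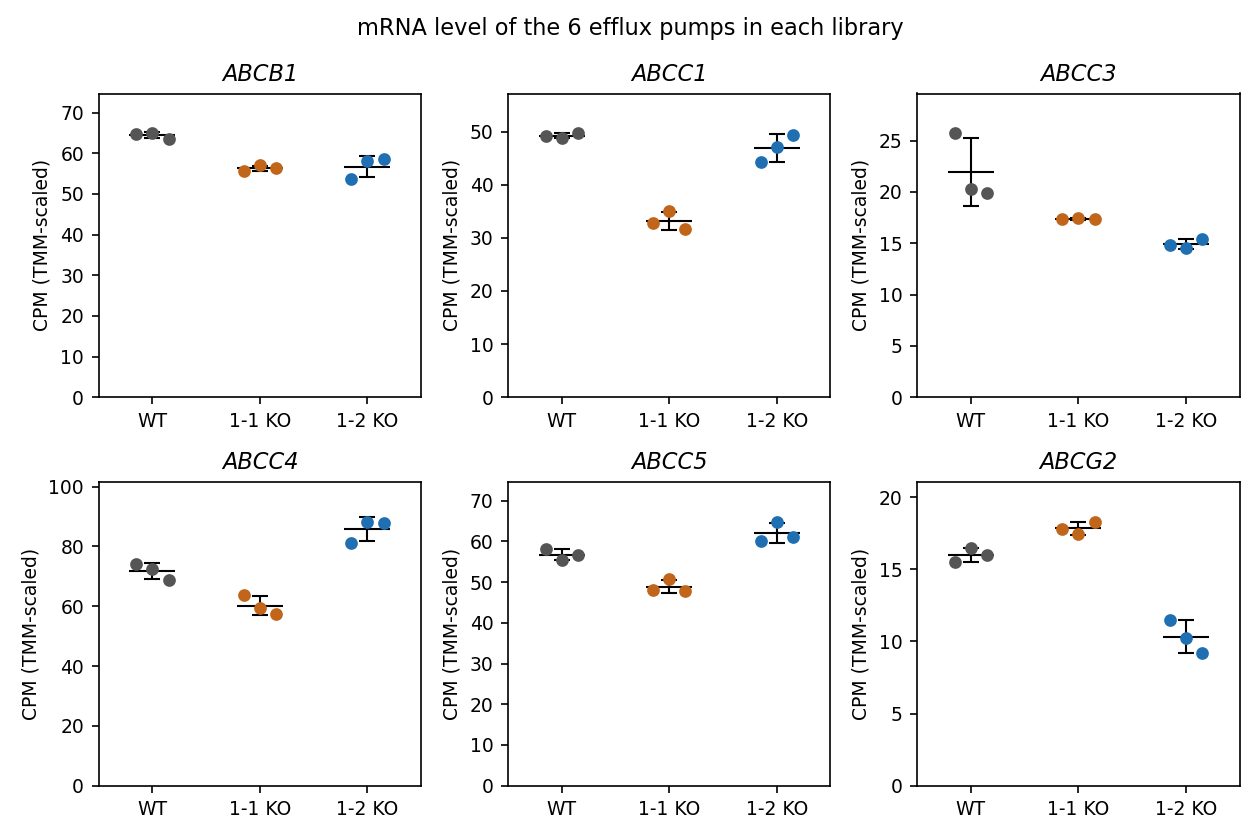
Level of each pump mRNA in CPM (y axis, starting at 0) in the 3 libraries of each line (x axis). Points are libraries 1 to 3 from left to right, and black bars give the mean and SD. ABCC1 is lowest in 1-1 KO, ABCG2 is lowest in 1-2 KO, and ABCC4 lies below WT in 1-1 KO and above it in 1-2 KO.

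**Figure D2:**
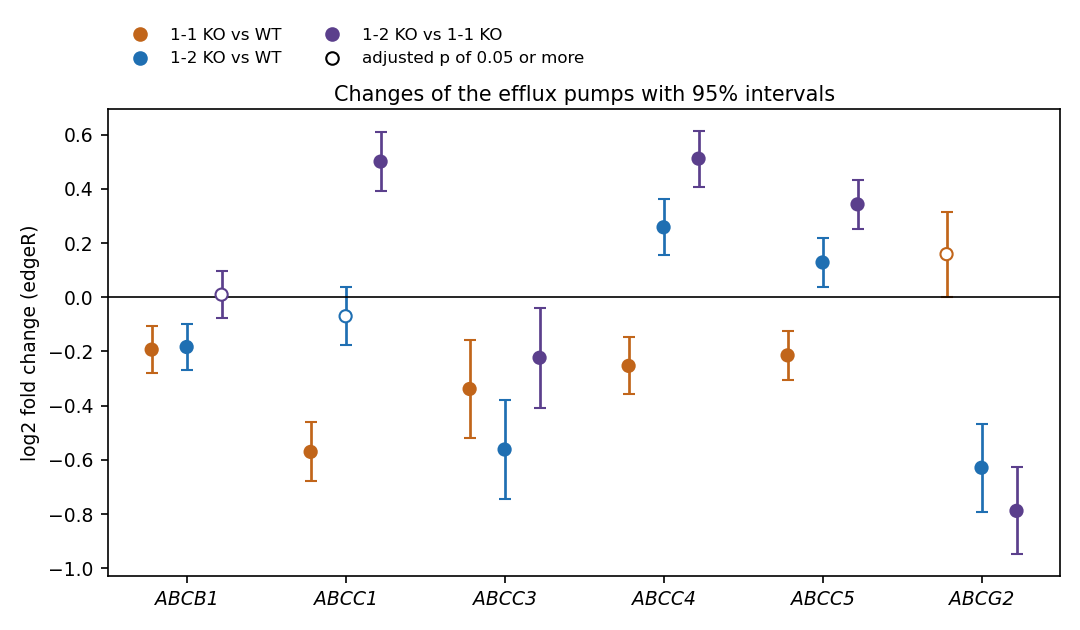
Log2 fold change of each pump (y axis) with its 95% interval in 3 comparisons from the edgeR fit. Open symbols mark an adjusted p of 0.05 or more, which are ABCG2 in 1-1 KO vs WT, ABCC1 in 1-2 KO vs WT and ABCB1 in 1-2 KO vs 1-1 KO.

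ABCB1 encodes P-glycoprotein, the classical multidrug resistance pump, which exports bulky hydrophobic drugs at the canalicular face of hepatocytes. The gene lies on the minus strand of chromosome 7 from 87503017 to 87713323 (GRCh38), and its reference transcript has 28 exons and codes for 1280 residues. WT libraries stood at 64.7, 65.0 and 63.6 CPM, 1-1 KO libraries at 55.7, 57.0 and 56.3 CPM, and 1-2 KO libraries at 53.7, 58.0 and 58.5 CPM. Every knockout library lay below every WT library, and the knockouts overlapped each other. ABCB1 fell by 0.19 on the log2 scale in 1-1 KO (SE 0.04, adjusted p = 7.45e-04) and by 0.18 in 1-2 KO (SE 0.04, adjusted p = 0.00140). Between 1-2 KO and 1-1 KO the log2 difference was 0.01, with a 95% interval from -0.08 to 0.10 (adjusted p = 0.847).

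The nearest gene, ABCB4, is the phosphatidylcholine translocator of bile and a close paralogue of ABCB1, and lies 22582 nt away on the same strand. ABCB4 was also downregulated, by 0.29 on the log2 scale in 1-1 KO (adjusted p = 0.00554) and by 0.36 in 1-2 KO (adjusted p = 0.00135). Its values are given because of its position, and reads matching both paralogues could have been split between them. RUNDC3B, which overlaps ABCB1 on the opposite strand, held only 16 to 31 counts per library. SLC25A40, the tested gene flanking ABCB1 on the other side, lay 120245 nt away and was not called. It differed by 0.06 in 1-1 KO (adjusted p = 0.368) and by 0.07 in 1-2 KO (adjusted p = 0.328).

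ABCC1 encodes MRP1, which exports glutathione, glucuronate and sulfate conjugates across the basolateral membrane. It spans 15949138 to 16143257 of chromosome 16 (plus strand), and its reference transcript has 31 exons. WT libraries stood at 49.2, 48.7 and 49.7 CPM, 1-1 KO libraries at 32.8, 35.0 and 31.6 CPM, and 1-2 KO libraries at 44.2, 47.1 and 49.4 CPM. The 1-1 KO libraries were clearly below both other lines, while 1-2 KO overlapped WT. ABCC1 fell by 0.57 on the log2 scale in 1-1 KO (SE 0.05, adjusted p = 2.37e-07). In 1-2 KO the log2 difference from WT was -0.07, with a 95% interval from -0.18 to 0.04 (adjusted p = 0.254), and it was -0.029 without 1-2 KO 1 (adjusted p = 0.648). The difference between the knockouts was itself significant, with ABCC1 1.41-fold higher in 1-2 KO than in 1-1 KO (log2 fold change 0.50, SE 0.05, adjusted p = 7.58e-07).

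The tested genes on either side of ABCC1 went different ways. CEP20, a centrosomal protein gene 60513 nt away, fell by 0.42 on the log2 scale in 1-1 KO (adjusted p = 6.68e-07) and differed by -0.10 in 1-2 KO (adjusted p = 0.0579). ABCC6, a hepatic ATP-release transporter that lies 6308 nt from ABCC1 on the opposite strand, rose by 0.40 in 1-1 KO (adjusted p = 1.31e-05) and by 0.15 in 1-2 KO (adjusted p = 0.0255). Both are named for their position. The pseudogenes ABCC6P1 (326 to 660 counts) and ABCC6P2 (47 to 82 counts) on the same chromosome were counted apart, so the ABCC6 count is uncertain.

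ABCC3 encodes MRP3, a basolateral exporter of glucuronides and bile salts, and spans 50634777 to 50692253 of chromosome 17 (plus strand). WT libraries stood at 25.7, 20.2 and 19.9 CPM, 1-1 KO libraries at 17.3, 17.5 and 17.4 CPM, and 1-2 KO libraries at 14.8, 14.5 and 15.4 CPM. The 3 lines did not overlap, but WT 1 was well above the other WT libraries. ABCC3 fell by 0.34 on the log2 scale in 1-1 KO (SE 0.08, adjusted p = 0.00291) and by 0.56 in 1-2 KO (SE 0.09, adjusted p = 6.59e-05). Without WT 1 the fall was 0.21 in 1-1 KO (adjusted p = 0.0103) and 0.43 in 1-2 KO (adjusted p = 5.89e-05). ABCC3 was lower in 1-2 KO than in 1-1 KO by 0.22 (adjusted p = 0.0340), a call that was lost without 1-2 KO 1 (fall of 0.22, adjusted p = 0.0578), without 1-2 KO 2 (adjusted p = 0.0943) and without any single 1-1 KO library (highest adjusted p = 0.0747).

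ABCC4 encodes MRP4, which exports cyclic nucleotides, prostaglandins, nucleotide analogues and bile salts. It lies on the minus strand of chromosome 13 from 95019835 to 95301475. WT libraries stood at 74.0, 72.5 and 68.7 CPM, 1-1 KO libraries at 63.8, 59.4 and 57.4 CPM, and 1-2 KO libraries at 81.3, 88.3 and 88.0 CPM. The knockouts lay on opposite sides of WT without any overlap. ABCC4 fell by 0.25 on the log2 scale in 1-1 KO (SE 0.05, adjusted p = 4.01e-04), and it rose by 0.26 in 1-2 KO (SE 0.05, adjusted p = 3.94e-04). It was 1.43-fold higher in 1-2 KO than in 1-1 KO (log2 fold change 0.51, SE 0.05, adjusted p = 3.74e-07). Both calls against WT were lost when the median change of neighbouring genes, described further on, was subtracted (adjusted p = 0.0684 and 0.237). The log2 difference between the knockouts was then 0.18, and its call was kept.

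ABCC5 encodes MRP5, another exporter of cyclic nucleotides and nucleotide analogues, and lies on the minus strand of chromosome 3 from 183919934 to 184017939. WT libraries stood at 58.2, 55.3 and 56.7 CPM, 1-1 KO libraries at 48.1, 50.7 and 47.9 CPM, and 1-2 KO libraries at 60.1, 64.9 and 61.1 CPM. As for ABCC4, no libraries of different lines overlapped and WT lay between the knockouts. ABCC5 fell by 0.21 on the log2 scale in 1-1 KO (SE 0.04, adjusted p = 5.27e-04) and rose by 0.13 in 1-2 KO (SE 0.04, adjusted p = 0.0190). The rise in 1-2 KO lost its call without WT 2 (adjusted p = 0.0744), without WT 3 (adjusted p = 0.0602) and without 1-2 KO 2 (adjusted p = 0.0902), and also in DESeq2 (adjusted p = 0.0641). ABCC5 was 1.27-fold higher in 1-2 KO than in 1-1 KO (adjusted p = 5.87e-06).

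ABCC4 and ABCC5 were the only pumps of the 6 called in opposite directions in the knockouts, against 11.7% of all genes tested. With the neighbour median subtracted, ABCC4 was called in neither knockout and ABCC5 not in 1-2 KO (adjusted p = 0.134), so that no pump was then called in opposite directions.

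ABCG2 encodes the breast cancer resistance protein, which works as a dimer and exports urate, porphyrins and many anticancer drugs. It lies on the minus strand of chromosome 4 from 88090150 to 88231628 and is the shortest of the pumps, with 655 residues. WT libraries stood at 15.5, 16.5 and 16.0 CPM, 1-1 KO libraries at 17.8, 17.4 and 18.3 CPM, and 1-2 KO libraries at 11.5, 10.2 and 9.23 CPM. Each 1-2 KO library lay below all others, and each 1-1 KO library lay above WT. ABCG2 fell by 0.63 on the log2 scale in 1-2 KO (SE 0.08, adjusted p = 7.26e-06). In 1-1 KO the log2 difference was 0.16, with a 95% interval from 0.00 to 0.32, and was not called (adjusted p = 0.0714), although it was called without 1-2 KO 1 (adjusted p = 0.0255) and without 1-2 KO 3 (adjusted p = 0.0438), libraries that belong to neither line compared. The direct comparison showed ABCG2 1.73-fold lower in 1-2 KO than in 1-1 KO (log2 fold change -0.79, SE 0.07, adjusted p = 3.99e-07).

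In the direct comparison of the knockouts 65.3% of all genes differed (33.1% higher and 32.2% lower in 1-2 KO). Among the pumps, ABCC1, ABCC4 and ABCC5 were higher and ABCC3 and ABCG2 lower in 1-2 KO. The median log2 fold change of the pumps was -0.23 in 1-1 KO vs WT, -0.13 in 1-2 KO vs WT and 0.18 in 1-2 KO vs 1-1 KO, beside 0.01, 0.02 and 0.01 over all genes tested. The median size of change, regardless of sign, was 0.23, 0.22 and 0.42 for the pumps and 0.35, 0.27 and 0.37 for all genes. Libraries of the lines did not overlap for 6 of 6 pumps between 1-1 KO and WT (68.9% of all genes), for 5 between 1-2 KO and WT (58.4%) and for 5 between the knockouts (69.8%).

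To see where the pump genes start, the RefSeq promoter table (GRCh38.p14) was searched, and 4 of the 6 pumps, ABCB1, ABCC4, ABCC5 and ABCG2, matched an entry at the start of their reference transcript. In each, the 250 bases upstream of the start were read on both strands for the letters of the GC box (GGGCGG), the CCAAT box (CCAAT), the TATA box (TATAAA), the AP-1 site (TGANTCA), the antioxidant response element core (TGACNNNGC), the xenobiotic response element core (GCGTG) and the hypoxia response element core (ACGTG). Those of ABCC4 and ABCC5, the pair called in opposite directions before subtraction of the neighbour median, are printed with that of ABCB1, the classical pump, on the strand of the gene, as the longest stretch outside annotated exons of the gene. Capitals mark motif matches.
ABCB1, chr7:87601079-87601134, minus strand: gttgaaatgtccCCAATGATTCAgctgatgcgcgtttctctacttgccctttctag
ABCC4, chr13:95301476-95301701, minus strand: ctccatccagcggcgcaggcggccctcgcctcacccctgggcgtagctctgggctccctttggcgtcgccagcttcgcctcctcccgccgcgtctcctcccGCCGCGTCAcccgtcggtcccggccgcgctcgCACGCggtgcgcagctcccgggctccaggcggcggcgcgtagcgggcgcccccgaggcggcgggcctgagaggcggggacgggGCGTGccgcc
ABCC5, chr3:184017940-184018134, minus strand: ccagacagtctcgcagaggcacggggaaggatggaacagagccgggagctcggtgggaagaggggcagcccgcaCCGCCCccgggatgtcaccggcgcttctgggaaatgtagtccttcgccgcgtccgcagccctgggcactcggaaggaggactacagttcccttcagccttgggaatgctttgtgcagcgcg

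The promoter windows differed among the pumps, ABCC4 and ABCC5 included. The ABCC4 window had 80.4% G and C and held 1 antioxidant response element core and 2 xenobiotic response element cores, whereas the ABCC5 window had 64.8% G and C and held a GC box and, nearer the start than the printed bases, a TATA box. The ABCB1 window had 55.6% G and C, near the median of 58.0% over all windows. It held 2 CCAAT boxes and 1 xenobiotic response element core. The upstream CCAAT box overlapped an AP-1 match within the letters CCAATGATTCA. The other CCAAT box and the xenobiotic response element core lay nearer the start than the printed bases. The ABCG2 window had 73.6% G and C and held 2 xenobiotic response element cores. Over the 34788 windows of the table these letters were found in 42.6% (GC box), 32.0% (CCAAT box), 10.8% (TATA box), 6.59% (AP-1 site), 10.9% (antioxidant response element core), 32.2% (xenobiotic response element core) and 18.5% (hypoxia response element core). A match is a description of the letters only. Annotated exons of the gene covered 194 bases of the ABCB1 window, 24 of ABCC4 and 55 of ABCC5. They covered all 250 bases of the ABCG2 window, which also held another listed start of that gene. The ABCB1 and ABCG2 windows lay within the annotated span of their genes, which had 2 and 5 listed starts.

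To compare levels between genes, counts were divided by the union of annotated exons and given as CPM per kilobase of exon (RPKM). In WT cells ABCB1 stood highest among the pumps (10.0 RPKM ± 0.112, SD, n = 3), followed by ABCC4 (8.31 ± 0.318), ABCC1 (5.64 ± 0.0569), ABCC5 (4.99 ± 0.125), ABCG2 (2.85 ± 0.0848) and ABCC3 (2.28 ± 0.341). No neighbours in that order overlapped among the WT libraries. With the longest transcript as the length, however, ABCC5 (9.70 RPKM) came before ABCC1 (7.47 RPKM) and ABCC3 (3.86 RPKM) before ABCG2 (3.30 RPKM) in WT, so these pairs have no fixed order.

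With the union of exons as the length, the order shifted in both knockouts. In 1-2 KO ABCC4 (9.95 RPKM ± 0.458, n = 3) stood above ABCB1 (8.83 ± 0.416), and their libraries did not overlap, while ABCC5 (5.46 ± 0.219) and ABCC1 (5.37 ± 0.297) overlapped. In 1-1 KO ABCB1 (8.77 ± 0.0975) stayed above ABCC4 (6.98 ± 0.382), and ABCC5 (4.30 ± 0.136) stood above ABCC1 (3.79 ± 0.195), with ABCG2 next (3.18 ± 0.0790). With the longest transcript as the length, ABCC5 stood above ABCC1 in WT already, so that shift depends on the length. ABCC4 stood above ABCB1 in 1-2 KO by that length too (13.9 against 10.9 RPKM). Summed over the 6 pumps, the level was 34.1 RPKM ± 0.690 in WT, 28.8 ± 0.453 in 1-1 KO and 33.0 ± 1.11 in 1-2 KO (SD, n = 3). The 1-1 KO libraries (28.3 to 29.2 RPKM) lay below those of WT (33.5 to 34.8 RPKM), and the 1-2 KO libraries (31.7 to 33.7 RPKM) overlapped WT. ABCC4 made up 29.7 to 30.4% of this sum in 1-2 KO libraries and 23.8 to 24.7% in WT, and ABCG2 4.91 to 6.48% in 1-2 KO, 7.94 to 8.64% in WT and 10.7 to 11.5% in 1-1 KO. In bulk RNA, fewer cells with an mRNA and less of it per cell cannot be told apart.

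**Figure D3:**
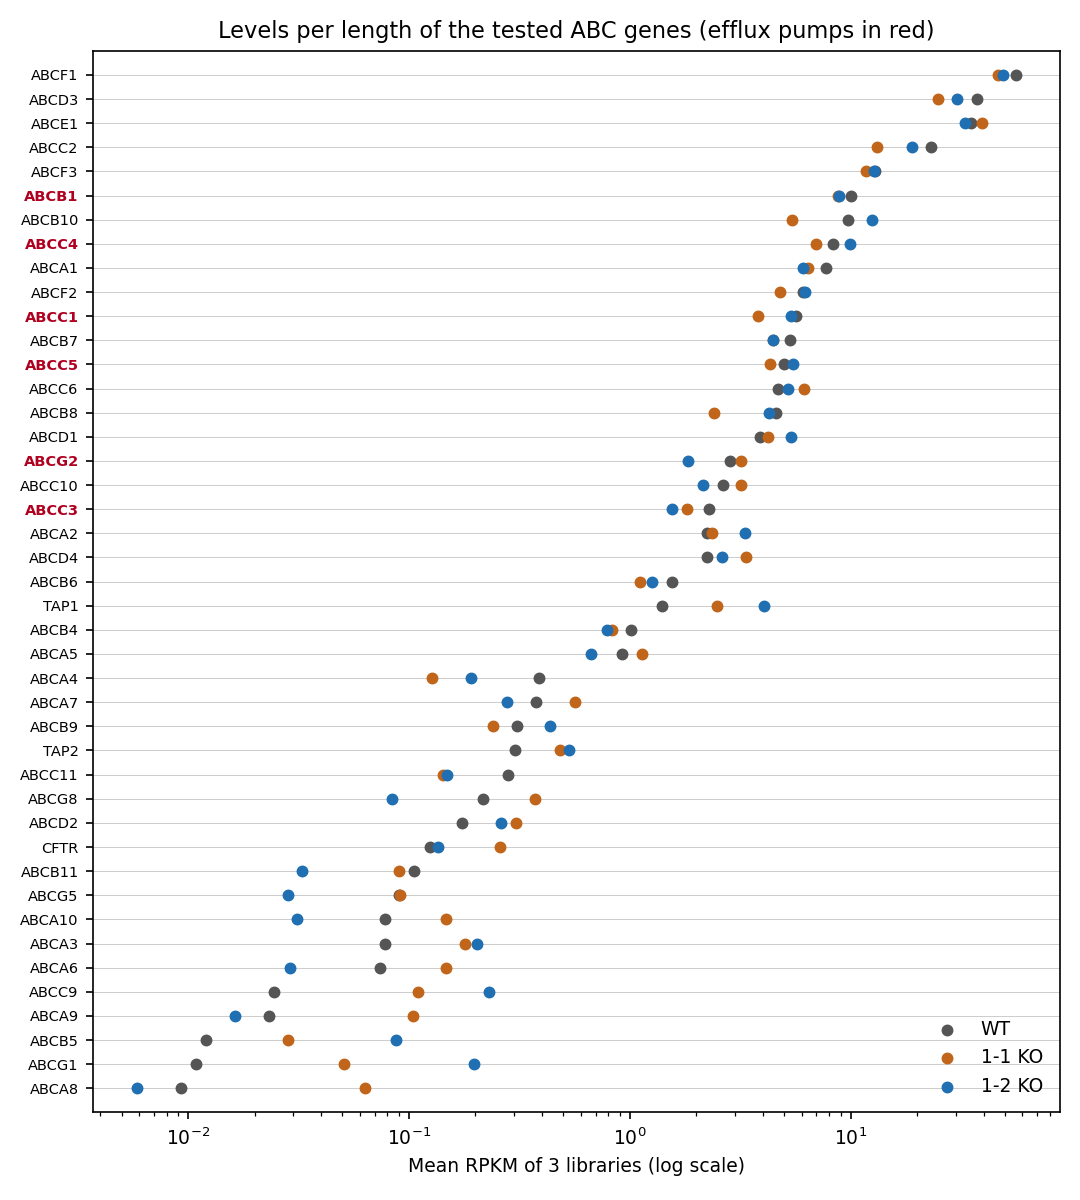
Mean RPKM of 3 libraries (x axis, log scale) for the 43 tested ABC genes, ordered by their WT level, with the 6 efflux pumps in red. In WT, ABCB1 ranks 6, ABCC4 8, ABCC1 11, ABCC5 13, ABCG2 17 and ABCC3 19.

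Among the 43 ABC genes tested, the pumps ranked from 6 (ABCB1) to 19 (ABCC3) in WT by RPKM. The highest gene of subfamilies B, C and G was ABCC2, which encodes the canalicular conjugate exporter MRP2 and was named for this level, at 23.1 RPKM in WT, 13.2 in 1-1 KO and 18.9 in 1-2 KO. It was downregulated by 0.81 on the log2 scale in 1-1 KO (adjusted p = 1.05e-09) and by 0.30 in 1-2 KO (adjusted p = 3.50e-05).

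Of the 22 other ABC genes of subfamilies B, C and G, 19 were tested, and 9 were higher and 8 lower in 1-1 KO (median log2 fold change -0.01), with 8 higher and 9 lower in 1-2 KO (median -0.11). The 1-1 KO median was 0.14 without 1-1 KO 2 and -0.18 without 1-1 KO 3. Several of them changed more than any pump. TAP1, a subunit of the peptide transporter that feeds MHC class I, rose by 0.84 in 1-1 KO and by 1.54 in 1-2 KO (adjusted p = 1.33e-06 and 2.42e-09). ABCC9, the sulfonylurea receptor SUR2 of potassium channels, rose by 2.15 and 3.22 from a low WT level of 0.428 CPM (adjusted p = 7.77e-07 and 6.09e-09).

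ABCG8, which with ABCG5 exports sterols into bile, rose by 0.77 in 1-1 KO (adjusted p = 5.14e-05) and fell by 1.37 in 1-2 KO (adjusted p = 1.86e-06). ABCG5 fell by 1.64 in 1-2 KO (adjusted p = 0.00355), with a log2 difference of -0.01 in 1-1 KO (adjusted p = 0.991), at no more than 17 counts per library. ABCB11, the bile salt export pump, fell by 1.66 in 1-2 KO (adjusted p = 1.74e-04) from 0.812 CPM in WT and differed by -0.22 in 1-1 KO (adjusted p = 0.418). In WT these biliary transporters stood at 0.217 (ABCG8), 0.0904 (ABCG5) and 0.105 RPKM (ABCB11).

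CFTR, the chloride channel of the family, rose by 1.05 in 1-1 KO (adjusted p = 2.69e-06) and differed by 0.12 in 1-2 KO (adjusted p = 0.486). ABCB10, a mitochondrial transporter of erythroid and hepatic cells, fell by 0.85 in 1-1 KO and rose by 0.35 in 1-2 KO (adjusted p = 1.01e-08 and 7.38e-05). ABCB5 and the cholesterol exporter ABCG1 were called higher in both knockouts but were close to 0 in WT: ABCG1 held 2, 2 and 3 counts in WT, 17, 16 and 6 in 1-1 KO and 41, 54 and 51 in 1-2 KO, and ABCB5 1, 5 and 5 counts, then 10, 12 and 9, then 23, 32 and 38.

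Subfamilies A, D, E and F, which carry lipids and peroxisomal fatty acids or act in translation, gave 10 higher and 6 lower of 18 tested in 1-1 KO (median 0.24) and 5 higher and 8 lower in 1-2 KO (median -0.25). The 1-2 KO median was -0.13 without WT 1, -0.15 in DESeq2 and -0.081 with at least 10 counts in every library, and with the neighbour median subtracted 7 were higher and 8 lower in 1-1 KO (median 0.043). ABCD3, a peroxisomal fatty acid transporter, fell by 0.58 and 0.31 (adjusted p = 3.45e-09 and 3.02e-06), and ABCA4, a retinoid transporter, by 1.60 and 1.03 (adjusted p = 2.32e-07 and 1.49e-05).

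Drugs enter hepatocytes through organic anion and cation carriers and leave for the bile partly through MATE carriers. Of 11 such genes tested, 8 were higher and 2 lower in 1-1 KO (median log2 fold change 0.68), whereas in 1-2 KO none was higher and 5 were lower (median -0.51). Between the knockouts, 9 of the 11 were lower in 1-2 KO (median -1.14). The 1-2 KO median was -0.28 without 1-2 KO 2, and with at least 10 counts in every library 9 genes were left, with medians of 0.35 in 1-1 KO and -0.59 between the knockouts. SLCO2B1, an anion uptake carrier, stood at 34.1 CPM in WT, 68.0 in 1-1 KO and 23.2 in 1-2 KO, a rise of 1.00 and a fall of 0.56 on the log2 scale (adjusted p = 4.77e-10 and 4.44e-07). SLC22A3, the cation carrier OCT3, fell by 1.97 and 0.51 (adjusted p = 1.83e-11 and 9.22e-06). SLC22A9, an anion carrier of liver, rose by 0.33 in 1-1 KO (adjusted p = 1.13e-05) and fell by 0.81 in 1-2 KO (adjusted p = 2.30e-09).

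Glutathione conjugates are substrates of the ABCC pumps. Of 19 tested genes of glutathione synthesis and conjugation, 4 were higher and 9 lower in 1-1 KO (median -0.07), and 1 was higher and 15 lower in 1-2 KO (median -0.44). With the neighbour median subtracted, 2 were higher and 11 lower in 1-2 KO (median -0.17). GCLC, the catalytic subunit of the rate-limiting glutamate-cysteine ligase, fell by 0.52 in 1-1 KO and by 0.59 in 1-2 KO (adjusted p = 2.69e-08 and 1.03e-08), and its modifier subunit GCLM by 0.88 and 0.36 (adjusted p = 1.39e-10 and 1.67e-06). GSR, which regenerates reduced glutathione, fell by 0.86 and 0.24 (adjusted p = 5.69e-11 and 3.24e-05), and the microsomal transferase MGST1 by 0.19 and 0.76 (adjusted p = 7.02e-04 and 1.06e-09). The gene that rose in 1-2 KO was GSTP1, by 0.51 (adjusted p = 1.98e-08), which is named as the only gene of the list called higher there.

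Of 17 transcription factors known to bind efflux pump genes, all tested, 8 were higher and 7 lower in 1-1 KO (median 0.00) and 4 higher and 8 lower in 1-2 KO (median -0.07; 7 lower without 1-2 KO 1). PPARG, a nuclear receptor for fatty acids, fell by 1.04 and 0.35 (adjusted p = 1.70e-11 and 1.15e-06). ARNT, the partner of the aryl hydrocarbon receptor and of HIF1A, fell by 0.79 and 0.25 (adjusted p = 3.79e-08 and 0.00198), and YBX1, a Y-box protein, by 0.39 in each knockout (adjusted p = 9.02e-08 and 1.39e-07). These factors are listed as background to the pumps, and their part in the pump levels was not tested.

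Membrane anchors hold pumps at the canalicular membrane or in caveolae. Of 6 tested, 1 was higher and 4 lower in 1-1 KO (median -0.14), and 0 were higher and 4 lower in 1-2 KO (median -0.27; 5 lower without 1-2 KO 1, 1 higher without 1-2 KO 2 or without 1-2 KO 3). Radixin (RDX) fell by 0.76 and 0.24 (adjusted p = 9.83e-11 and 1.80e-05), caveolin-1 (CAV1) by 0.84 and 0.30 (adjusted p = 1.70e-09 and 5.13e-05), ezrin (EZR) by 0.14 and 0.34 (adjusted p = 0.00517 and 2.44e-06), and the scaffold PDZK1 by 0.15 and 0.34 (adjusted p = 0.00798 and 1.31e-05).

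Of the 3 vault proteins, 2 were higher and 1 lower in 1-1 KO (median 0.26), and 0 were higher and 2 lower in 1-2 KO (median -0.17; 1 lower without WT 1). The major vault protein MVP stood at 15.8 CPM in WT, 18.9 in 1-1 KO and 12.4 in 1-2 KO, a rise of 0.26 and a fall of 0.35 (adjusted p = 0.00184 and 2.81e-04). TEP1, the telomerase-associated vault protein, rose by 0.77 in 1-1 KO and fell by 0.17 in 1-2 KO (adjusted p = 9.15e-09 and 0.0110). PARP4, the vault poly(ADP-ribose) polymerase, fell by 0.26 in 1-1 KO (adjusted p = 1.37e-04) and differed by -0.02 in 1-2 KO (adjusted p = 0.780).

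**Figure D4:**
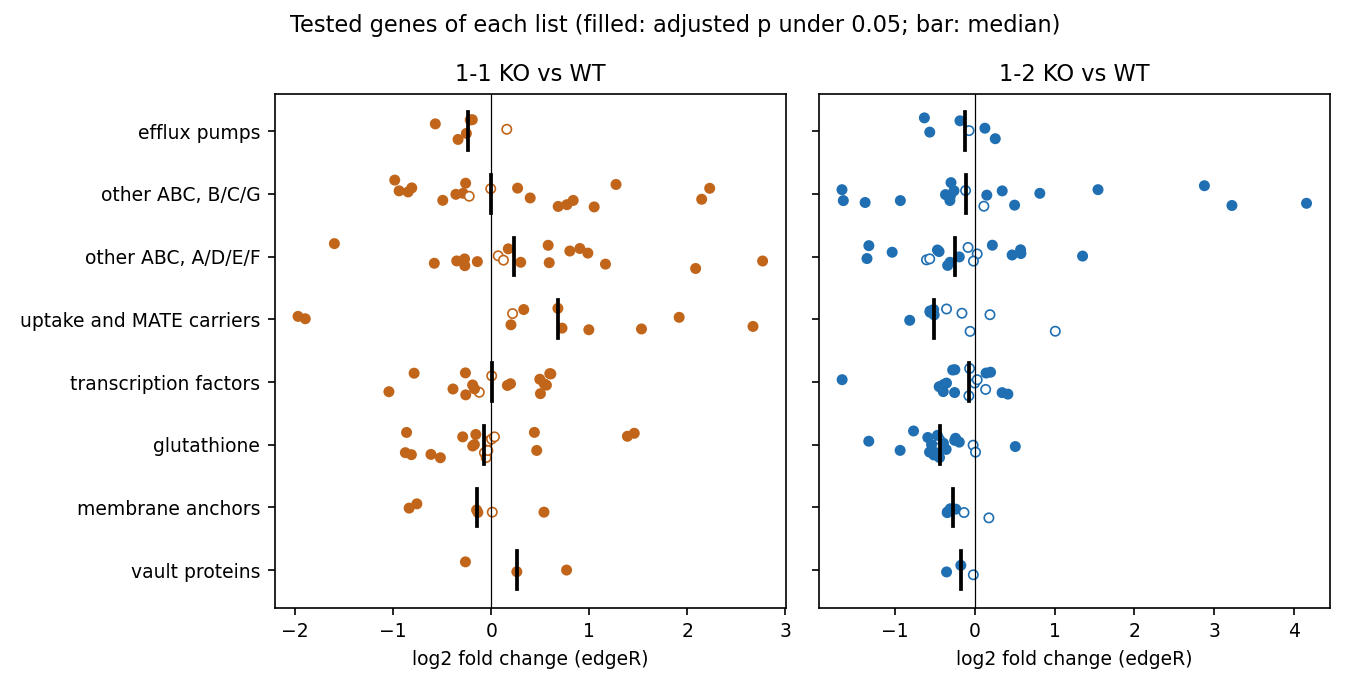
Log2 fold change (x axis) of every tested gene of 8 lists (y axis), for each knockout against WT. Filled points have an adjusted p under 0.05 and black bars are medians. The pumps lie within 0.63 of 0 on either side, while single members of other lists move by more than 2. ABCG1, the highest point in 1-2 KO, held 2 or 3 counts per WT library, so its position is only approximate.

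Since each knockout is a separate line and stretches of chromosomes can shift together, each pump was set beside the median log2 fold change of the 50 nearest tested genes on its chromosome. For ABCC4 the neighbour median had the sign of the pump's change, at -0.14 in 1-1 KO and 0.19 in 1-2 KO. The nearest tested gene on 1 side, GPR180, went against ABCC4 in both. It differed by 0.21 in 1-1 KO (adjusted p = 0.00435) and by -0.16 in 1-2 KO (adjusted p = 0.0273). On the other side DZIP1 rose by 2.23 and 3.56 (adjusted p = 9.48e-11 and 5.91e-13). After subtraction of the neighbour median, ABCC4 differed by -0.11 in 1-1 KO (adjusted p = 0.0684) and by 0.071 in 1-2 KO (adjusted p = 0.237), so both calls were lost. The rise of ABCC5 in 1-2 KO was also lost (0.079, adjusted p = 0.134, neighbour median 0.05). The neighbour median was entered as a fixed value, so its own uncertainty is left out of every adjusted p after subtraction.

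The other falls stayed past the threshold after this subtraction. The neighbour median of ABCC1 was -0.16 in 1-1 KO, and ABCC1 still fell by 0.41 there. In 1-2 KO its neighbours had a median of 0.08, and ABCC1 then was called lower by 0.15 (adjusted p = 0.0217). The neighbour medians of ABCC3 (0.05 in 1-1 KO, 0.21 in 1-2 KO) and ABCB1 (0.10 and 0.01) did not share the pumps' direction. ABCB4, next to ABCB1, nevertheless fell in both knockouts. The neighbours of ABCG2 had medians of 0.24 in 1-1 KO and 0.04 in 1-2 KO. After subtraction ABCG2 differed by -0.077 in 1-1 KO (adjusted p = 0.386). Whether a change in copy number lies behind any of these medians was not tested.

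**Figure D5:**
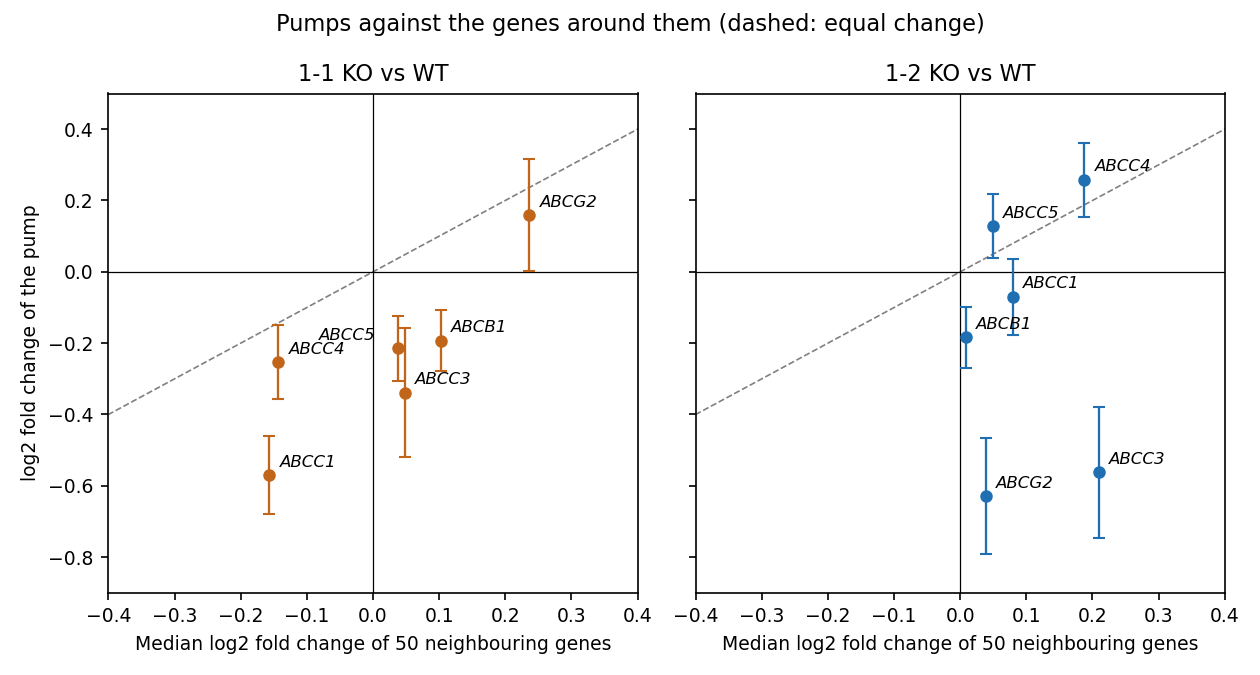
Log2 fold change of each pump with its 95% interval (y axis) against the median of the 50 nearest tested genes (x axis) in 1-1 KO (left) and 1-2 KO (right) vs WT. ABCC4 lies nearest to the dashed line of equal change among the pumps called in both knockouts, with neighbour medians of -0.14 and 0.19.

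For each pump the genes with the most similar profile over the 9 libraries were sought among 13350 candidates averaging 1 CPM or more, as the smallest root-mean-square difference of centred log2 CPM. PDS5A and CLCN5 lay closest to ABCB1 (0.0147 and 0.0164 log2 units). TOMM34 and SLC5A6 were closest to ABCC1 (0.0305 and 0.0373), and ZNF76 and ACAA1 to ABCC3 (0.0566 and 0.0743). SCTR and ANKRD28 were closest to ABCC4 (0.0377 and 0.0396), PRKD3 and KIF3B to ABCC5 (0.0243 and 0.0281), and MRPS30 and MRPL54 to ABCG2 (0.0412 and 0.0574). The root-mean-square of the pump's own centred profile was 0.0937 for ABCB1, 0.253 for ABCC1 and 0.234 for ABCC3. It was 0.213 for ABCC4, 0.144 for ABCC5 and 0.327 for ABCG2. The distances were not scaled to these values, so they are not comparable between pumps. The 9 libraries are points from only 3 lines. No pump appeared among the nearest genes of another.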

How the data were processed

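RNA of 9 Huh-7 libraries (3 per line) had been sequenced as stranded mRNA libraries. Per the study's methods, the authors aligned reads to hg38 (annotation version 104) with STAR and used featureCounts for the count per gene. The deposited values are whole-number read counts without normalization. Tool versions, strand setting and the treatment of reads matching several places are not given in the sources used here.

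Counts were tested with edgeR 4.0.16 in R 4.3.3. Genes passed filterByExpr (minimum count 10, minimum total 15), counts were TMM-scaled, and all 9 libraries entered 1 quasi-likelihood fit with a term per line. P-values were adjusted by Benjamini-Hochberg over 17207 genes, with a threshold of 0.05. CPM are TMM-scaled, RPKM use the union of GENCODE 44 exons on GRCh38, and intervals are 95%. Principal components and profiles used log2(CPM + 1). Figures were drawn with matplotlib 3.10.9. Steps were tested on simulated data.

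The pumps, gene lists and tests were chosen with earlier results of these data known. Named genes are the 6 pumps, ABC genes of subfamilies B, C and G called with an absolute log2 fold change over 1, in each other list the 2 genes with the lowest adjusted p in either knockout, all vault proteins, and the 2 nearest profiles of each pump. APOB, ABCB4, ABCC2, ABCC6, CEP20, GSTP1 and the other flanking genes of the pumps, and the low or undetected cell type markers, fall outside this rule, and were chosen after their values were seen. Alternatives were DESeq2 1.42.0, its size factors, library size alone, other filters, the 2 groups alone, a replicate term, a stricter threshold, subtraction of the neighbour median, other lengths or TPM, and leaving out each library. A marker gene of the fixed lists is not reported here.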

Additional observations from a re-analysis of the deposited data

Results flagged for a closer look

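For 5 pumps the 1-2 KO line differed from the 1-1 KO line by edgeR's test, which compares the lines and not the deletions as such. The log2 fold change of 1-2 KO over 1-1 KO was 0.50 for ABCC1 (0.26 with the neighbour median subtracted), 0.51 for ABCC4 (0.18 after that subtraction) and 0.34 for ABCC5. It was -0.22 for ABCC3, the weakest of these differences (adjusted p = 0.0340), and -0.79 for ABCG2. The ABCC3 call was lost without any single 1-1 KO library, without 1-2 KO 1 or without 1-2 KO 2 (adjusted p from 0.0578 to 0.0943) and at a threshold of 0.01, so that 4 pumps were then called. Of all genes tested, 65.3% differed between the knockouts by the same test.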

How the results depend on the processing

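Counts of called pumps stayed within 4 to 6 under every alternative in each comparison. ABCB1, ABCC1 and ABCC5 in 1-1 KO, ABCC3 in both knockouts, ABCB1 and ABCG2 in 1-2 KO, and ABCC1, ABCC4, ABCC5 and ABCG2 between the knockouts kept direction and call under all 18 alternatives. Their sizes moved more. With the neighbour median subtracted, the difference between the knockouts shrank to 0.26 for ABCC1, 0.18 for ABCC4 and -0.59 for ABCG2. For ABCC3 it grew to -0.38. ABCG2 in 1-1 KO gained a call with library size alone (0.21) and with only the 2 groups fitted (0.16), and changed sign with the neighbour median subtracted (-0.077). It ranged from 0.14 to 0.18 with single libraries left out. That subtraction ended the calls of ABCC4 (-0.11 in 1-1 KO, 0.071 in 1-2 KO) and of ABCC5 in 1-2 KO (0.079), and made calls of ABCC1 in 1-2 KO (-0.15) and of ABCB1 between the knockouts (0.10). ABCC5 in 1-2 KO also lost its call with DESeq2 (0.12), with no filter (0.11) and at a threshold of 0.01 (0.13), and ranged from 0.10 to 0.15 with single libraries left out. ABCC3 between the knockouts lost its call at a threshold of 0.01 (-0.22), ranging from -0.25 to -0.20 with single libraries left out. The difference of ABCB1 between the knockouts, near 0 throughout, changed sign with at least 10 counts per library (-0.011) and with only 2 groups fitted (-0.013), and ranged from -0.013 to 0.049 with single libraries left out. Levels per length scaled with the length used, and TPM also shifted the lines against each other. ABCC1 stood at 21.4 TPM in 1-2 KO and 21.3 in WT, where RPKM gave 5.37 and 5.64. The summed pump level was taken in RPKM only, so its order of 1-2 KO and WT is tied to that scale. Apart from the subtraction, the cause of these shifts was not tested. Deviations of same-numbered libraries correlated from -0.353 to 0.182 over 9 pairs, so the numbers were not taken to pair the samples. The highest correlation of all was between WT 3 and 1-2 KO 1 (0.459), which differ in number, and its source was not tested. With a replicate block 5 pumps were called in each comparison, and over all genes 10596, 8986 and 10923.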
